A study of Osmia excavata with 6 samples.

Results

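The enzymes described here make fatty acids, lengthen them, put double bonds into them, reduce them to alcohols and turn the products into the hydrocarbons and waxes of the insect surface. Members were chosen by name from the deposited table of a de novo transcriptome of Osmia excavata, a solitary mason bee. A gene was taken when its description ended with 1 of 9 bee genera and named a fatty acyl-CoA reductase, an elongase of very long chain fatty acids, a desaturase, an acyl-CoA Delta enzyme, a fatty acid synthase, an acetyl-CoA carboxylase or another very-long-chain enzyme. A gene whose Swiss-Prot match was a Cytochrome P450 4g was taken as well. This gave 39 of the 37061 assembled genes, of which 28 matched the leafcutter bee genus Megachile, 4 Habropoda and 2 each Osmia and Apis. Of the 39, 3 build the chain, 15 belong to elongation, 5 are desaturases, 14 are fatty acyl-CoA reductases and 2 are Cytochrome P450 4G genes. The names go against the theme in 2 cases: DEGS1, a sphingolipid desaturase, and a gene described as cholesterol desaturase daf-36, a family that acts on sterols.

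The study set bees immersed in water beside controls to look at transcripts during emergence from the cocoon. There were 3 immersion libraries, whose titles call them a decocooning group, and 3 control libraries. The tissue label holds only the species name, and the labels are silent on body part, sex, age, the handling of the controls and the time of sampling. Nothing says that the 3 libraries of a group came from separate animals, so each p-value measures only the spread between these libraries. In bulk RNA, fewer cells of a type and less RNA per cell cannot be told apart.

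Acetyl-CoA carboxylase makes malonyl-CoA, and fatty acid synthase joins it into a fatty acid. Elongases add carbons, with a dehydratase as a later step of each round, and desaturases set the double bonds. Fatty acyl-CoA reductases turn the acyl chain into an aldehyde or an alcohol. In Drosophila, Cyp4g1 of the oenocytes (cells beside the fat body) converts long-chain aldehydes to the cuticular hydrocarbons that keep water in, and in the honey bee CYP4G11 has been tied to the same step. The sequences of the assembly were not used here, and orthology beyond the Swiss-Prot names was not examined.

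Estimated counts came to between 17755830 and 18666554 in the immersion libraries and between 16765886 and 19953734 in the controls. Genes that match the nematode Caenorhabditis held 14050 to 14980 CPM (the share of a library's counts, scaled to a common total) after immersion, 3464 CPM in control 1 and at most 0.908 CPM in controls 2 and 3. Mammal-matching genes held 7122 to 11430 CPM after immersion, 20520 CPM in control 1 and at most 558 CPM in controls 2 and 3. Control 1 therefore shares the foreign reads with the immersion libraries. Differences were tested with edgeR's quasi-likelihood test over the 9250 Hymenoptera-matching genes that passed its filter on low counts, and p-values were adjusted over all 9250. A fit with a term for the 4 libraries that hold worm reads sets immersion against control 1 alone, and it is called the worm-read fit here. The labels name no batch, and this grouping comes from the worm-matching counts alone.

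Levels are comparable between genes only as TPM, which the authors' files give scaled for transcript length. Averaged over the 6 libraries, 16 members stood at 100 TPM or more, 12 between 10 and 100 TPM and 11 below 10 TPM. Cyp4g15 (TRINITY_DN6938_c0_g1) led them by 17.9-fold over the next, the reductase FAR2 (TRINITY_DN9616_c0_g1). It ranked at 3, 3 and 5 among all Hymenoptera-matching genes by TPM in immersion libraries 1, 2 and 3, and at 4, 3 and 1 in controls 1, 2 and 3. All members together summed to 17099, 14432 and 11106 TPM after immersion, against 14682, 22066 and 37258 TPM in the controls. Without the 2 Cytochrome P450 4G genes the sums were 6178, 5525 and 4251 TPM after immersion, against 4686, 5195 and 6412 TPM in the controls. The groups overlapped in both sums.

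**Figure D1:**
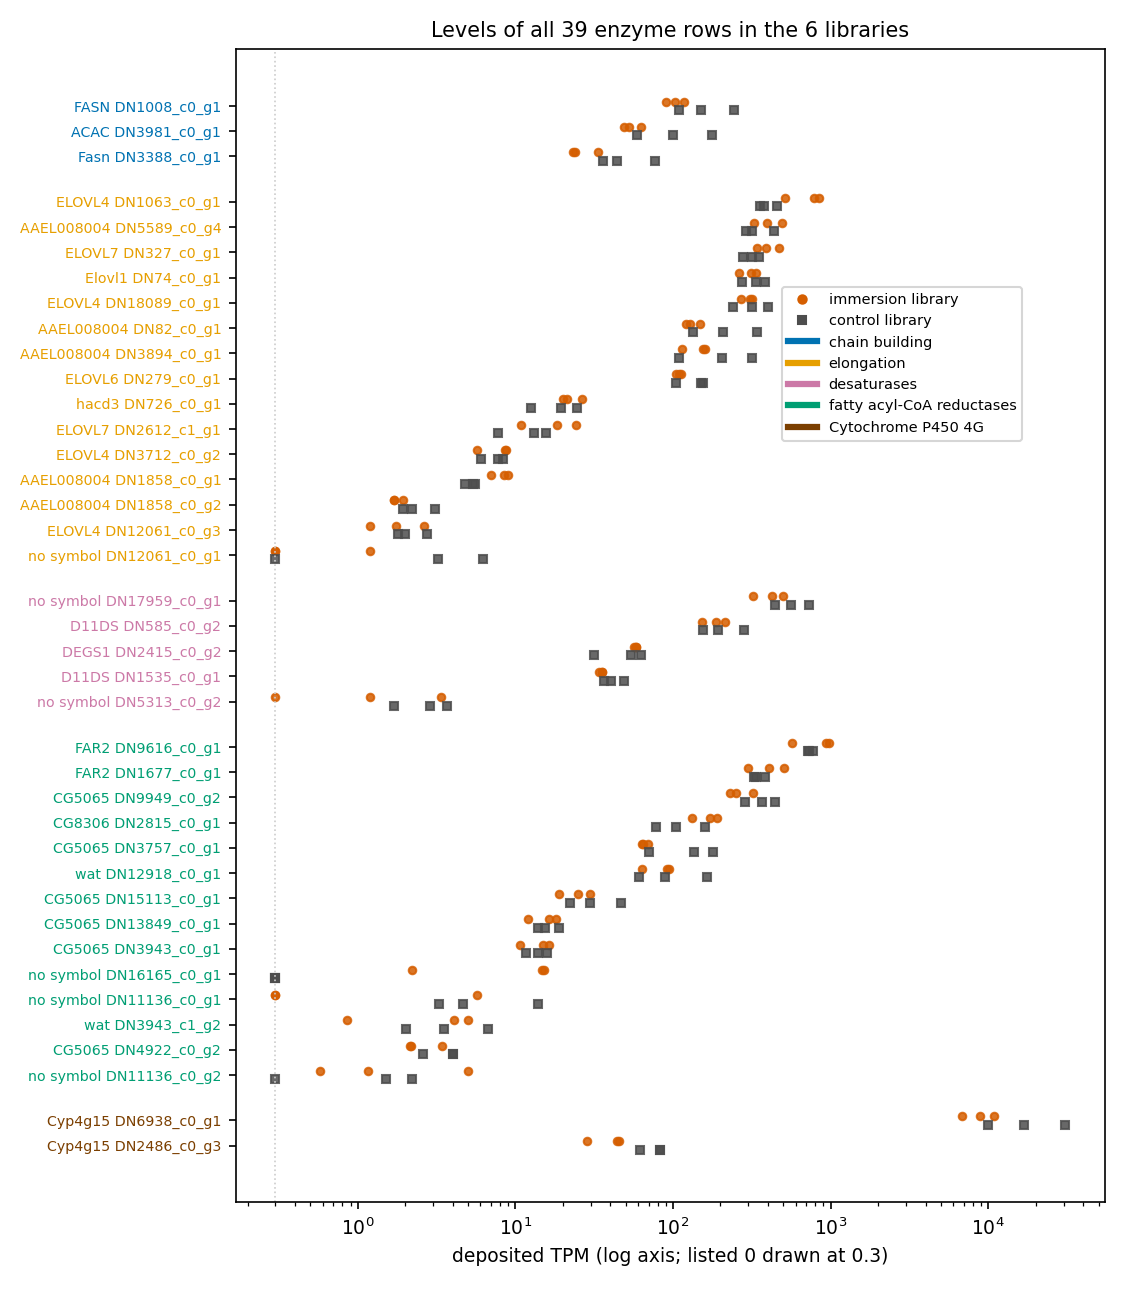
Deposited TPM of each of the 39 members on a log axis, with circles for the 3 immersion libraries and squares for the 3 control libraries, grouped and coloured by role, identifiers without their TRINITY prefix. Cyp4g15 (DN6938_c0_g1) lies between 6811.06 and 30763.43 TPM, to the right of all other members.

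The filter kept 32 of the 39 members. At an adjusted p of 0.05, edgeR called 0 of the 32 members and 0 of all 9250 genes (percent called 0.0), and the lowest adjusted p of a member was 0.0907. An unadjusted p under 0.05 was reached by 7 members, 2 higher and 5 lower after immersion. That is 21.9% of the members, against 34.8% of all 9250 genes (14.2% higher and 20.6% lower). Normalised CPM, which are CPM scaled by TMM factors, did not overlap between the groups in 7 members (2 higher, 5 lower), against 46.2% of all genes (24.0% higher and 22.2% lower). In TPM the groups did not overlap in 6 members, 2 higher and 4 lower, against 24.9% of all genes higher and 19.8% lower. The median log2 fold change of the 32 members was -0.18, with 12 positive and 20 negative, and that of all 9250 genes was 0.02. The members thus held a smaller share of small p-values than the table as a whole, and that difference was not tested.

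The number of members with an unadjusted p under 0.05 varied when 1 library was left out. It was 16, 5 and 8 without controls 1, 2 and 3, and 4, 3 and 4 without immersion libraries 1, 2 and 3. With all 6 libraries it was 7. The matching shares of all genes at an unadjusted p were not computed for these fits. At an adjusted p of 0.05, edgeR called 12 members without control 1 (3 higher, 9 lower; 37.5%, against 52.3% of all genes tested) and 1 member, lower, without control 3 (3.12%, against 3.87%). DESeq2 on all 6 libraries called 7 members (2 higher, 5 lower, 21.9%, against 23.0%). The lower ones were both Cytochrome P450 4G genes, ACAC (TRINITY_DN3981_c0_g1), Fasn (TRINITY_DN3388_c0_g1) and the reductase TRINITY_DN3757_c0_g1. The higher ones were the elongases TRINITY_DN1063_c0_g1 and TRINITY_DN1858_c0_g1. Limma-voom with library weights called 16 of 32 (6 higher, 10 lower), against 68.9% of all genes. Without control 1, immersion and the foreign reads separate the libraries in the same way, so the treatment and whatever brought those reads cannot be told apart there.

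**Figure D2:**
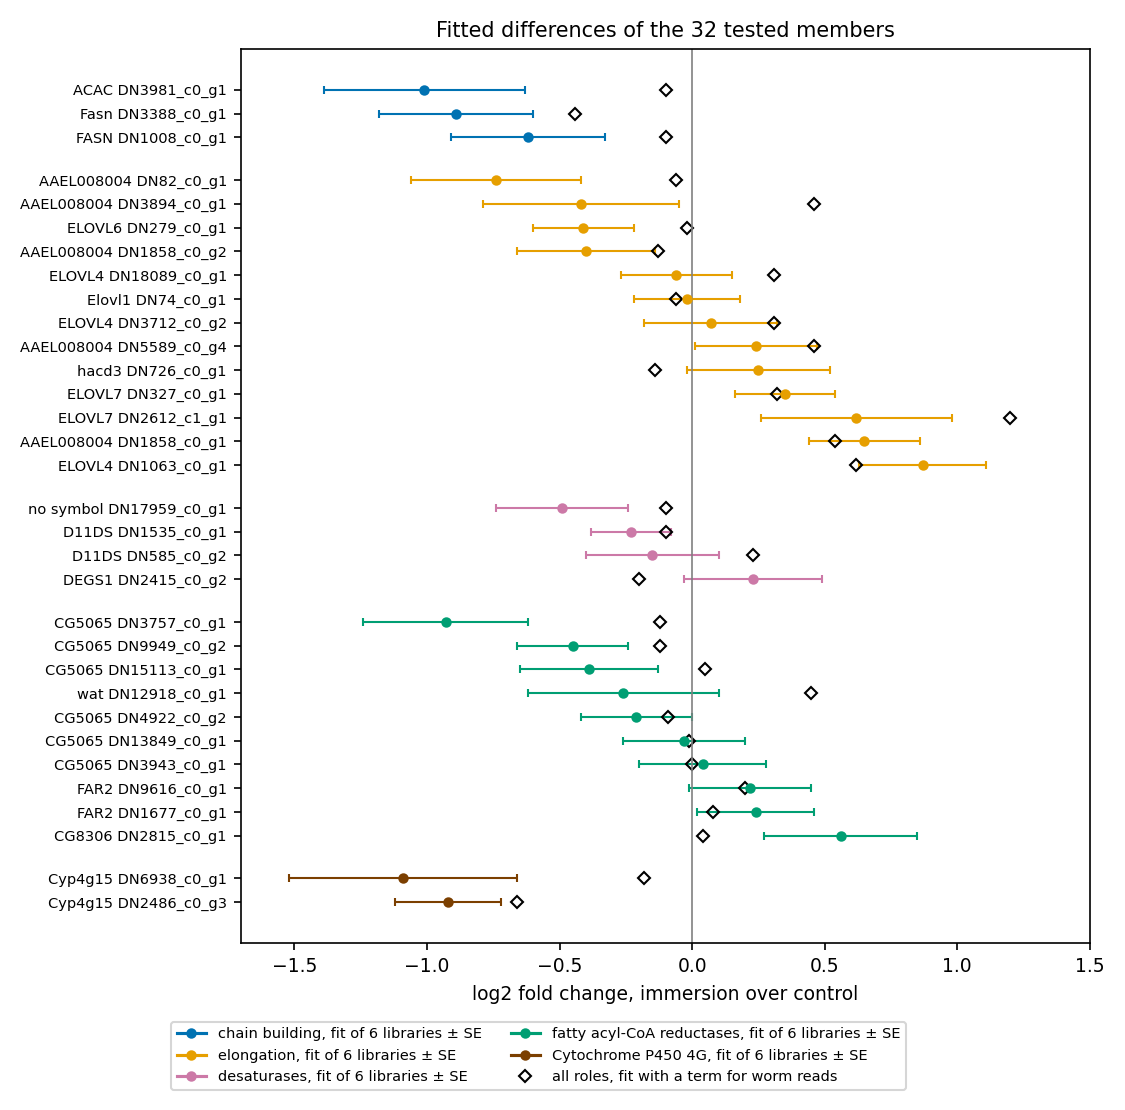
Log2 fold change of immersion over control for the 32 tested members, with filled circles and bars for the fit of 6 libraries ± SE and open diamonds for the worm-read fit. The chain-building and Cytochrome P450 4G genes lie left of 0 in both fits, and the elongation genes spread from -0.74 to 0.87 in the fit of 6 libraries.

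The 3 chain-building genes had lower means after immersion, and control 1 lay close to the immersion libraries. In edgeR on all 6 libraries none (0 of 3) passed. ACAC (TRINITY_DN3981_c0_g1), the acetyl-CoA carboxylase that commits acetyl-CoA to fat, had 459.9, 379 and 368 normalised CPM in immersion libraries 1, 2 and 3, against 430, 695 and 1299 normalised CPM in controls 1, 2 and 3. Only control 1 fell within the immersion range. Its mean was 402 ± 50.2 after immersion and 808 ± 446 in controls (SD, n = 3 each). On the log2 scale it differed by -1.01 ± 0.38 (SE; edgeR adjusted p = 0.122).

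Fatty acid synthase was represented by a pair of long genes. FASN (TRINITY_DN1008_c0_g1) had 781, 639 and 688 normalised CPM after immersion, against 751, 931 and 1565 normalised CPM in the controls, and the groups overlapped through control 1. Fasn (TRINITY_DN3388_c0_g1) had 215, 159.5 and 154 normalised CPM after immersion, against 239, 264 and 476 normalised CPM in the controls. Every immersion library of Fasn was below every control. Their log2 fold changes were -0.62 ± 0.29 (edgeR adjusted p = 0.159) and -0.89 ± 0.29 (edgeR adjusted p = 0.107). In the worm-read fit ACAC, FASN and Fasn stood at -0.10, -0.10 and -0.44.

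These 3 genes are 8227 to 9996 bases long, and long transcripts as a class had negative fold changes in the fit of 6 libraries, with 0 of all genes called. The 432 tested bee genes of 8000 bases or more had a median log2 fold change of -0.71, with the middle of their distribution (25th to 75th percentile) between -0.92 and -0.48. The 2391 genes of 1000 to 2000 bases had a median of 0.44. In the worm-read fit these medians were -0.20 for the longest genes and 0.16 for those of 1000 to 2000 bases. After removal of a loess trend on length from each library, ACAC, FASN and Fasn stood at -0.22, 0.07 and -0.22, so that FASN changed sign. The part of transcript length in these differences was not tested.

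**Figure D3:**
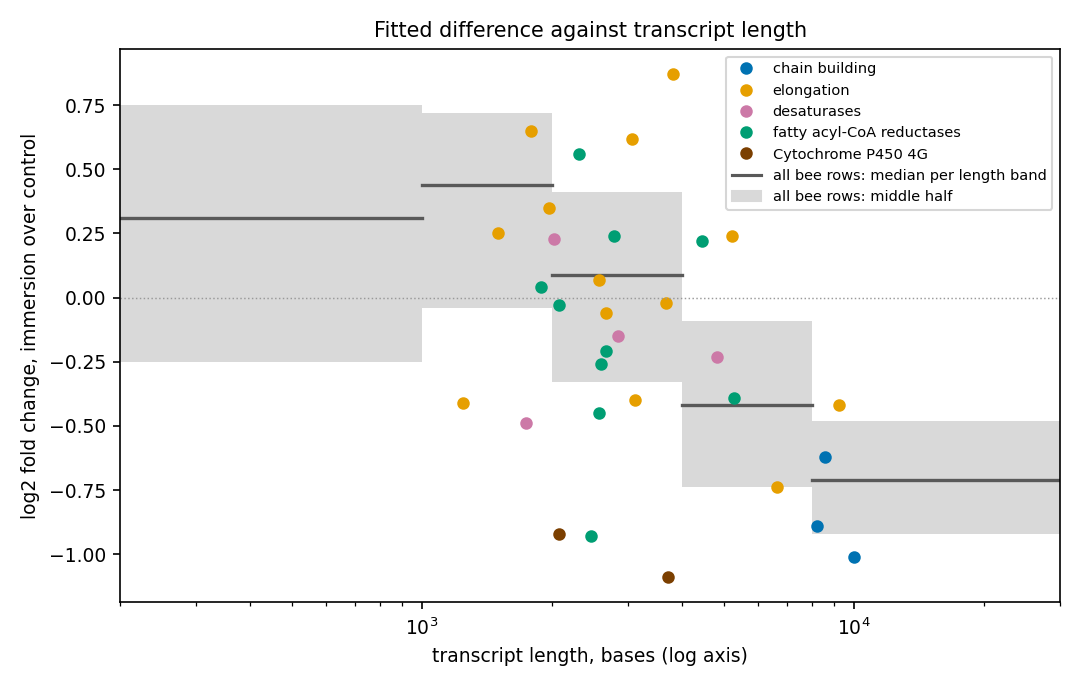
Log2 fold change of immersion over control against transcript length in bases on a log axis, with 1 point for each of the 32 tested members coloured by role, and, for all tested bee genes in 5 length bands, the median (line) and the 25th to 75th percentile (grey). The chain-building genes lie in the longest band, whose median is -0.71, whereas both Cytochrome P450 4G genes lie below the grey area of the band from 2000 to 4000 bases.

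Elongation held the members with the highest values after immersion relative to controls. Of its 15 genes 13 were tested, 7 with a positive and 6 with a negative fold change (median log2 0.07). In edgeR 2 reached an unadjusted p under 0.05, both higher, with 0 called. The median had the same sign with RLE size factors (0.03) and upper-quartile scaling (0.17), and was negative without immersion library 1 (-0.01) or immersion library 2 (-0.06). ELOVL4 (TRINITY_DN1063_c0_g1), the most abundant elongase at a mean of 553.8 TPM, had 1471, 1485 and 914 normalised CPM after immersion, against 839.6, 646 and 632 normalised CPM in the controls. All immersion libraries were above all controls, with immersion library 3 nearest to them. Its mean was 1290.2 ± 326 after immersion and 706 ± 116 in controls, a log2 fold change of 0.87 ± 0.24 with an edgeR adjusted p of 0.0924. The value in the worm-read fit was 0.62, and with the length trend removed it was 1.03.

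AAEL008004 (TRINITY_DN1858_c0_g1), named after an elongase of the mosquito Aedes aegypti, was scarce, with 9.37, 9.47 and 7.54 normalised CPM after immersion, against 6.07, 5.6 and 5.14 normalised CPM in the controls. The groups did not overlap (log2 fold change 0.65 ± 0.21, edgeR adjusted p = 0.105). This gene is 1787 bases long, and bee genes of 1000 to 2000 bases had a median of 0.44. With the length trend removed its log2 fold change was 0.34, and in the worm-read fit 0.54. Its neighbour in the same assembly cluster, TRINITY_DN1858_c0_g2, had the opposite sign at -0.40 ± 0.26, and reads could be split between such genes. Of 35 assembly clusters that hold members, 4 hold a pair.

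Other elongases did not separate the groups. TRINITY_DN82_c0_g1, also matched to AAEL008004, had 747, 686 and 612 normalised CPM after immersion, against 709.6, 997 and 1706 normalised CPM in the controls (log2 fold change -0.74 ± 0.32, edgeR adjusted p = 0.145). Control 1 lay inside the immersion range, and the value in the worm-read fit was -0.06. A further AAEL008004 match, TRINITY_DN5589_c0_g4, had 903, 784 and 613 normalised CPM after immersion, against 558, 569.8 and 815 normalised CPM in the controls (0.24 ± 0.23, edgeR adjusted p = 0.433). The remaining 9 tested genes of elongation had log2 fold changes between -0.42 and 0.62 and edgeR adjusted p-values between 0.167 and 0.952. They include ELOVL6, which in mammals lengthens the products of fatty acid synthase (-0.41 ± 0.19), and hacd3, the dehydratase of the elongation cycle (0.25 ± 0.27).

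Of the 5 desaturases 4 were tested, 3 with a negative and 1 with a positive fold change (median log2 -0.19), and 0 reached an unadjusted p under 0.05. The most abundant, an acyl-CoA Delta(11) desaturase (TRINITY_DN17959_c0_g1), belongs to a family that places a double bond in fatty acyl chains and, in moths, makes pheromone precursors. It had 396, 368 and 265 normalised CPM after immersion, against 368, 454 and 625 normalised CPM in the controls (log2 fold change -0.49 ± 0.25, edgeR adjusted p = 0.188). The groups overlapped, with control 1 below immersion library 1.

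D11DS (TRINITY_DN1535_c0_g1), another acyl-CoA desaturase, had 71.1, 71.9 and 70.5 normalised CPM after immersion, against 76.2, 77.6 and 96.5 normalised CPM in the controls. Its immersion libraries lay close together and below every control, by a log2 fold change of -0.23 ± 0.15 (edgeR adjusted p = 0.265) that was 0.08 with the length trend removed. The other D11DS gene (TRINITY_DN585_c0_g2) had 422, 398 and 306 normalised CPM after immersion, against 319.7, 370.4 and 557 normalised CPM in the controls (-0.15 ± 0.25, edgeR adjusted p = 0.666). DEGS1 (TRINITY_DN2415_c0_g2), which makes ceramide from dihydroceramide, had 61.9, 65.2 and 60.0 normalised CPM after immersion, against 71.8, 53.7 and 33.6 normalised CPM in the controls (0.23 ± 0.26, edgeR adjusted p = 0.51). Control 1 had the highest DEGS1 value of the 6 libraries, and the value in the worm-read fit had the opposite sign (-0.20).

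**Figure D4:**
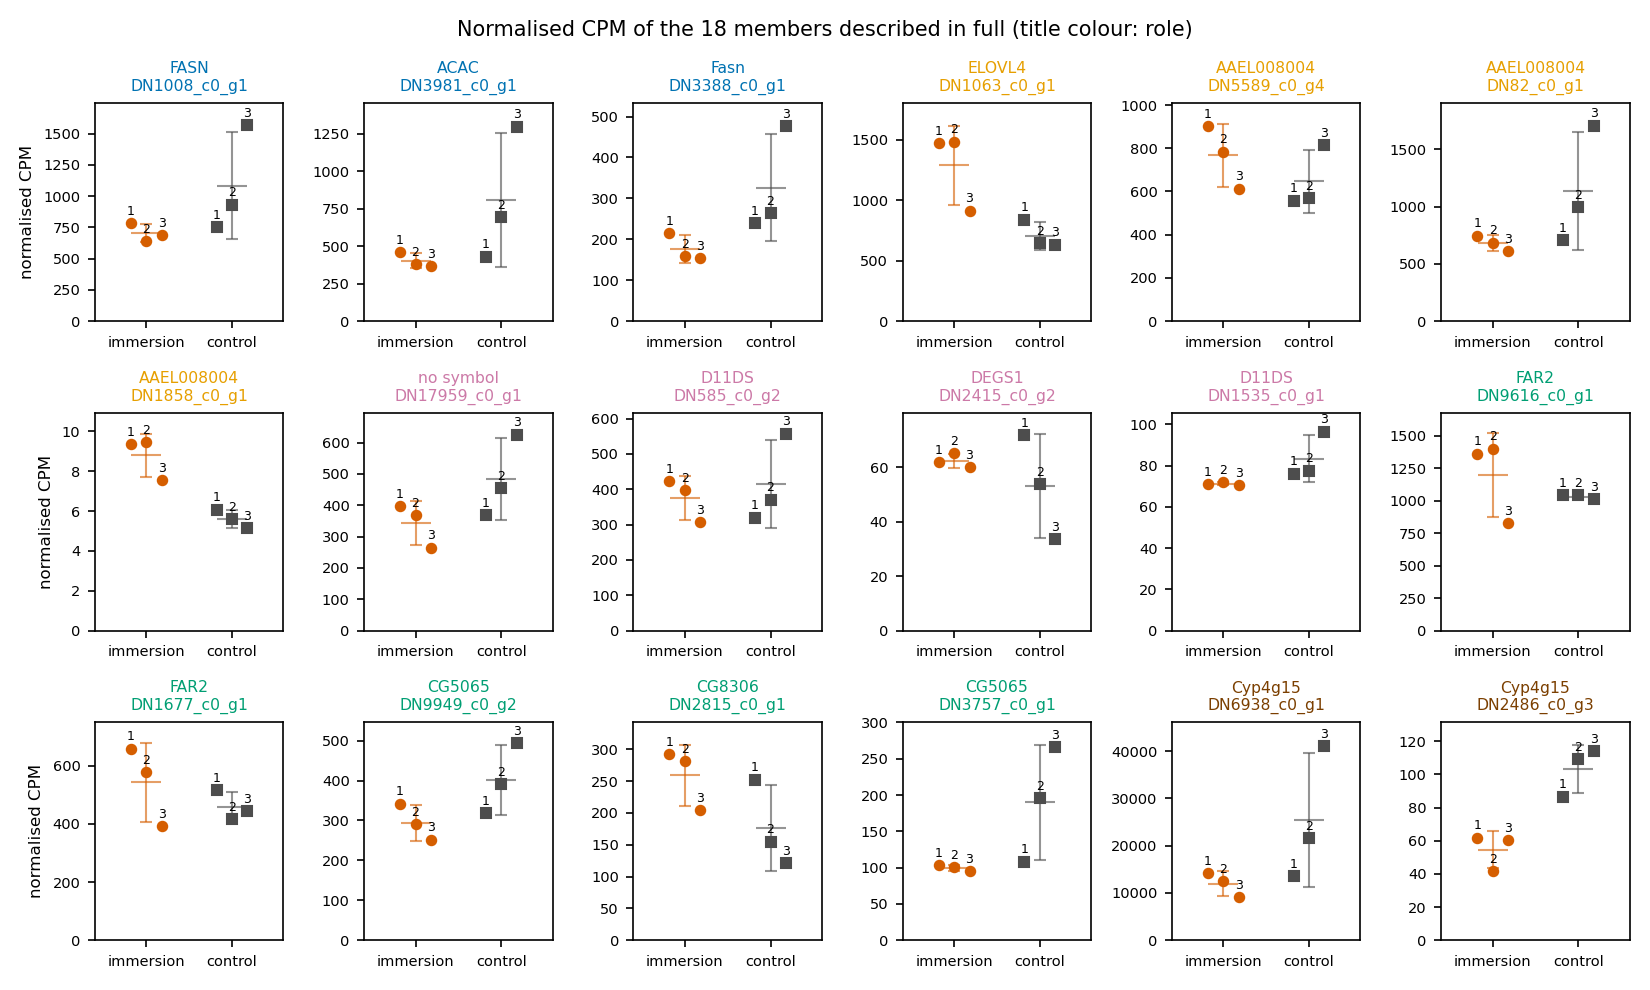
Normalised CPM of 18 members, each panel with the 3 immersion libraries left of the 3 controls, points numbered by library, a line at the mean and bars of 1 SD, on axes that start at 0 and differ between panels. Control 3 is far above controls 1 and 2 for ACAC, Fasn, FASN and Cyp4g15 (DN6938_c0_g1), whereas ELOVL4 (DN1063_c0_g1) is higher in all 3 immersion libraries than in any control.

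All 14 fatty acyl-CoA reductases carried the same KEGG orthology entry, and 10 were tested, 4 with a positive and 6 with a negative fold change (median log2 -0.12). The median was 0.13 without control 3 and 0.03 without immersion library 3. In edgeR 0 were called and 1 reached an unadjusted p under 0.05, lower. That gene, a match to CG5065, a putative Drosophila reductase (TRINITY_DN3757_c0_g1), had 103, 101 and 94.7 normalised CPM after immersion, against 108, 196 and 266 normalised CPM in the controls (log2 fold change -0.93 ± 0.31, edgeR adjusted p = 0.105). The groups did not overlap, but control 1 was only just above the immersion libraries, and the value in the worm-read fit was -0.12.

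Both of the most abundant reductases had higher means after immersion without passing the test. FAR2 (TRINITY_DN9616_c0_g1), whose mammalian namesake makes fatty alcohols for waxes, had 1364, 1403 and 830.5 normalised CPM after immersion, against 1043, 1043 and 1013 normalised CPM in the controls. The controls agreed closely, and the immersion libraries lay on either side of them (log2 fold change 0.22 ± 0.23, edgeR adjusted p = 0.489). The other FAR2 match (TRINITY_DN1677_c0_g1) had 659, 577 and 393 normalised CPM after immersion, against 515, 416 and 443 normalised CPM in the controls (0.24 ± 0.22, edgeR adjusted p = 0.421). In both genes immersion library 3 was below all controls and the other immersion libraries were above them.

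CG8306 (TRINITY_DN2815_c0_g1), named after another putative Drosophila reductase, had 292, 281 and 204 normalised CPM after immersion, against 252, 155 and 121 normalised CPM in the controls (log2 fold change 0.56 ± 0.29, edgeR adjusted p = 0.198). Control 1 again lay among the immersion libraries, and the value in the worm-read fit was 0.04. Another CG5065 match (TRINITY_DN9949_c0_g2) had 342, 289.8 and 252 normalised CPM after immersion, against 319, 391 and 493 normalised CPM in the controls (-0.45 ± 0.21, edgeR adjusted p = 0.171). The other 5 tested reductases had log2 fold changes between -0.39 and 0.04. Among them was wat (TRINITY_DN12918_c0_g1), named after the Drosophila gene waterproof, which is needed for gas filling of the airways, at -0.26 ± 0.36.

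Both Cytochrome P450 4G genes had lower means after immersion and an unadjusted p under 0.05, with 0 called in edgeR on all 6 libraries. DESeq2 called both (adjusted p = 0.0338 for TRINITY_DN6938_c0_g1 and 0.00275 for TRINITY_DN2486_c0_g3), against 23.0% of all genes. Limma-voom with library weights called both as well, against 68.9% of all genes, as did edgeR without control 1, against 52.3%. The abundant Cyp4g15 (TRINITY_DN6938_c0_g1) had 14186, 12538 and 9069 normalised CPM after immersion, against 13520.2, 21545 and 41043 normalised CPM in the controls. Control 1 lay within the immersion range and control 3 stood far above all other libraries. The mean was 11931 ± 2612 after immersion and 25369 ± 14154 in controls, a log2 fold change of -1.09 ± 0.43 with an edgeR adjusted p of 0.129. Without control 3 the log2 fold change was -0.56, without control 1 it was -1.38, and the value in the worm-read fit was -0.18. This gene alone held 1.47%, 1.31% and 0.948% of all estimated counts in the immersion libraries, against 1.29%, 1.85% and 2.92% in the controls. The 95% Wilson intervals of these shares, which cover counting error only, were at most 0.015 percentage points wide.

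The scarce Cyp4g15 match (TRINITY_DN2486_c0_g3) had the smallest p of all members. It had 61.8, 41.6 and 60.5 normalised CPM after immersion, against 86.6, 109 and 114 normalised CPM in the controls, so the groups did not overlap and control 1 kept to the side of the other controls. Its mean was 54.6 ± 11.3 after immersion and 103 ± 14.8 in controls (SD, n = 3 each). On the log2 scale it differed by -0.92 ± 0.20 (SE; edgeR adjusted p = 0.0907), and by -0.66 in the worm-read fit. It was the single member that edgeR called without control 3, only just under the threshold (edgeR adjusted p = 0.0495).

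The 7 members that the filter left out are 208 to 631 bases long, and 5 of them have no Swiss-Prot match. None had an estimated count above 10.17 in any library. A reductase fragment (TRINITY_DN16165_c0_g1) had estimated counts of 6.99, 7.37 and 1 after immersion and 0 in all 3 controls, too few for a comparison. The cholesterol desaturase daf-36 match (TRINITY_DN5313_c0_g2) had at most 3 counts in a library.

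A further 50 genes were taken by name as pathway partners, and 45 were tested. Their names are of enzymes that supply acetyl-CoA and NADPH, pass electrons to desaturases and P450s, or activate fatty acids. Others bind or carry lipids or put fatty acids into glycerolipids. The set also holds mitochondrial genes named for the acyl carrier protein, AMP-activated protein kinase subunits and genes named for sterol regulatory element-binding protein. In edgeR 0 were called, and 13 (28.9%) reached an unadjusted p under 0.05, 5 higher and 8 lower, against 34.8% of all genes. Their median log2 fold change was -0.01. Without control 1 edgeR called 17 of the 45, against 52.3% of all genes tested, and without control 3 it called 2 of the 45, against 3.87%. The 4 with the smallest p were both apolipophorin genes, Acsf2 and a cytochrome b5. The large apolipophorin gene (TRINITY_DN1986_c0_g2), precursor of the particle that carries lipids and hydrocarbons in the blood, had 2497, 2256 and 2373 normalised CPM after immersion, against 4092, 6853 and 14010.4 normalised CPM in the controls (log2 fold change -1.81 ± 0.43, edgeR adjusted p = 0.0907). The groups did not overlap. Its log2 fold change was -1.20 without control 3, -0.98 with the length trend removed and -0.78 in the worm-read fit.

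A short apolipophorin gene of the same assembly cluster (TRINITY_DN1986_c0_g1) had 6.06, 5.71 and 4.52 normalised CPM after immersion, against 10.8, 12.4 and 13.0 normalised CPM in the controls (-1.15 ± 0.22, edgeR adjusted p = 0.089). Acsf2 (TRINITY_DN11296_c0_g1), a mitochondrial acyl-CoA synthetase, had 173, 164 and 141 normalised CPM after immersion, against 215, 361 and 479 normalised CPM in the controls (-1.14 ± 0.29, edgeR adjusted p = 0.0907). A cytochrome b5-like gene (TRINITY_DN4837_c0_g1), from a family that feeds electrons to desaturases, had 169.9, 221 and 139.6 normalised CPM after immersion, against 100, 101 and 58.7 normalised CPM in the controls (1.03 ± 0.27, edgeR adjusted p = 0.0907). In the worm-read fit the log2 fold changes of the short apolipophorin gene, Acsf2 and the cytochrome b5-like gene were -0.98, -0.43 and 0.82. In these 3 genes as well the groups did not overlap, and none passed the adjusted threshold in edgeR on all 6 libraries. DESeq2 gave them adjusted p-values of 9.95e-05, 0.00466 and 0.0083, and the large apolipophorin gene 0.000552. It called 8 of the 45 partners, against 23.0% of all genes.

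Most members shared 1 pattern among the controls. Control 3 was the highest control in 24 of the 32 tested members, against 43.5% of all tested genes, and control 1 was the lowest control in 21 (65.6%), against 41.5%. Control 1 lay within the range of the immersion libraries in 18 members (56.2%), against 30.0% of all tested genes. On the log2 scale it was nearer to the immersion mean than to that of the other controls in 24 members, about the same share as the 74.6% of all tested genes. None of these differences in share was tested. Summed over 7 fat body genes (vitellogenin, hexamerins and apolipophorins), TPM stood at 6753, 7607 and 5907 after immersion, against 5572, 9953 and 28619 in controls 1, 2 and 3, and all 7 were detected. The 2 apolipophorin genes above are in that sum, and a single vitellogenin gene made up most of it. Summed TPM of 29 genes taken as gut markers by name alone (trypsin, alpha-glucosidase or peritrophic) stood at 8955, 10146 and 9853 after immersion, against 5966, 14145 and 14937 in the controls. Summed TPM of 3 reproductive markers (vitellogenin receptor, vasa and nanos), which do not tell the sex, stood at 709, 604 and 699 after immersion, against 564, 758 and 1109 in the controls. The sums of fat body, gut and reproductive markers and the abundant Cyp4g15 were thus all lowest among the controls in control 1 and highest in control 3. The part of tissue make-up in the members' values was not tested. Muscle markers (42 genes, 2 at 0 in every library) summed to between 17341 and 29543 TPM after immersion and between 22622 and 23711 TPM in the controls, and nervous system markers (27 genes, 1 at 0) to between 548 and 587 TPM after immersion and between 576 and 651 TPM in the controls, where control 1 was again lowest and control 3 highest.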

How the data were processed

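The authors deposited estimated counts and TPM per assembled gene, per the file headers, and the gene identifiers have the form Trinity writes. Tools listed in the submitters' processing notes are cutadapt 1.9, Salmon and edgeR. How the assembly and annotation were run is not stated there. Reads of near-identical or overlapping genes may have been divided between rows of the table. Wilson intervals of 95% were computed for shares of counts.

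Estimated counts of Hymenoptera-matching genes were rounded, and the tests were run in R 4.3.3 with edgeR 4.0.16 (filterByExpr, TMM, estimateDisp, glmQLFit with its legacy option, glmQLFTest; both directions, Benjamini-Hochberg, threshold 0.05). Restricting the fit to these genes kept worm- and mammal-matching reads out of the scaling, and the whole table was fitted as an alternative. Values are normalised CPM, with SD over 3 libraries. Per-library values are given for the 2 members of highest mean TPM and the 3 of smallest p in each role, and the 4 partners of smallest p. The members, lists and tests were chosen with earlier results of these data known. Alternatives were DESeq2 1.42.0, limma 3.58.1 (voom, and log2 of TPM with a pseudocount of 1), other scalings, filters and gene sets, a loess length trend (span 0.3), a worm-read term (libraries above 1000 CPM), the replicate block, and each library left out. The procedure was tested on simulated counts with the same spread for every gene and no foreign reads. That setting differs from these libraries, so the run does not show how the test performs on them.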

Additional observations from a re-analysis of the deposited data

Results flagged for a closer look

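Genes with the same enzyme names but a match to Caenorhabditis were outside the comparisons. The 17 such genes, among them worm desaturases and elongases, summed to 63.0, 66.5 and 62.9 CPM in immersion libraries 1, 2 and 3, against 17 CPM in control 1 and 0 in controls 2 and 3, so the signal lay above every control. The 17 mammal-matching genes with such names summed to 37.8, 32.4 and 14.8 CPM after immersion, against 56.2 CPM in control 1 and 0 in controls 2 and 3.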

How the results depend on the processing

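The number of members called (0), of members under an unadjusted p of 0.05 (7, with 2 higher and 5 lower), of partners called (0), and the medians were recomputed in 20 alternatives. DESeq2 called 7 of 32 members and 8 of 45 partners, against 23.0% of all genes. Limma-voom with library weights called 16 of 32 members and 27 of 45 partners, against 68.9% of all genes. It put 18 members under an unadjusted p of 0.05, 7 higher and 11 lower. The worm-read fit left 2 (1 higher, 1 lower). Higher members numbered 1 on the whole table and with summed descriptions, and lower members numbered 3 on log2 TPM. With 1 library left out, called members ranged from 0 to 12 (12 without control 1, 1 without control 3), called partners from 0 to 17 (17 without control 1, 2 without control 3), members at an unadjusted p from 3 to 16 (1 to 5 higher, 1 to 12 lower), the partners' median from -0.06 to 0.02 and the members' median from -0.28 to 0.03. The partners' median was 0.04 with the length trend removed or descriptions summed and 0.09 with upper-quartile scaling, which moved the median of all genes to 0.12, against 0.02. The causes were not tested.

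Signs turned for FASN (0.07) and D11DS TRINITY_DN1535_c0_g1 (0.08) with the length trend removed, for D11DS TRINITY_DN585_c0_g2 in the worm-read fit (0.23) and without control 3 (0.12), and for DEGS1 likewise (-0.20 and -0.01). With 1 library left out these last values ranged from -0.30 to 0.12 for D11DS and from -0.01 to 0.51 for DEGS1. Of the 22 genes with per-library normalised CPM, none changed sign in the other alternatives run. Outside that set, wat (-0.26 in the fit of 6 libraries) stood at 0.45 in the worm-read fit and 0.22 without control 3. Likewise hacd3 (0.25) stood at -0.14 in the worm-read fit and -0.08 with the length trend removed. The elongation gene TRINITY_DN3894_c0_g1 (-0.42) stood at 0.46 in the worm-read fit, 0.03 without control 3 and 0.35 with the length trend removed. The reductase TRINITY_DN15113_c0_g1 (-0.39) stood at 0.05 in the worm-read fit and 0.04 with the length trend removed. Members with smaller fold changes turned as well, among them TRINITY_DN18089_c0_g1 (-0.06, and 0.31 in the worm-read fit). Genes that share a description have no value of their own when descriptions are summed. Same-numbered libraries had correlations of deviations from their group mean of -0.154, 0.141 and 0.164, within the range of differently numbered pairs (-0.293 to 0.235). With 3 libraries a group these correlations depend on each other, so they cannot exclude a pairing. The labels name none. With the replicate block 0 members were called and 6 reached an unadjusted p under 0.05, 3 of them lower. Each value rests on 3 libraries a group, and 1 of the 3 controls shares foreign reads with the immersion libraries.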
